A study of Rattus norvegicus with 170 samples.

Results

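The endoplasmic reticulum (ER) stress response genes *Hspa5*, *Hsp90b1*, *Calr*, *Sdf2l1*, *Dnajb9*, *Herpud1*, *Xbp1*, *Atf4*, *Ddit3* and *Trib3* were chosen by symbol and make up 10 of the 24113 genes (27586 transcripts) measured. They were followed in single rat islet cells, from a study of whether GNF4877, an inhibitor of the kinases DYRK1A and GSK3β, makes β-cells divide. Islets of wild type male Sprague Dawley rats, 8 weeks old, were picked by hand and cultured at 5.5 mM glucose for 48 h, with the vehicle (0.1% DMSO) or with 3 µM GNF4877. After the culture they were made into single cells and captured on Fluidigm C1 chips, giving 86 DMSO-treated and 84 GNF4877-treated cells with a lone cell seen in the port. The labels name neither the animal nor the culture or chip of a cell. Each treatment was therefore 1 sample, no test was made between treatments, and an effect of the treatment cannot be told apart from that of a chip or a sequencing lane.

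Insulin is made on the ER, and β-cells carry a heavy folding load there. When unfolded protein builds up, the sensors IRE1, PERK and ATF6 raise chaperones and degradation factors through the spliced form of XBP1 and cleaved ATF6, and slow translation through PERK, which favours production of ATF4. ATF4 in turn raises *Ddit3*, which encodes CHOP, and *Trib3*, genes best known in β-cells for their link to cell death under lasting stress.

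Levels are RPM, the reads of a gene per 1000000 mapped reads of the cell, not divided by transcript length, so they were compared between cells and not between genes. A cell was called a β-cell at 1000 RPM or more of *Ins1* with *Gcg* below 1000 RPM, and an α-cell the other way round. These rules gave 56 β-cells and 5 α-cells in DMSO, and 58 β-cells and 18 α-cells in GNF4877. Another 22 DMSO-treated cells and 1 GNF4877-treated cell passed the threshold for both hormones and were in neither class. Around the threshold the nearest *Ins1* values were 1784 and 495 RPM in DMSO and 1248 and 813 RPM in GNF4877, and the nearest *Gcg* values were 5982 and 865 RPM in DMSO and 37011 and 454 RPM in GNF4877. Mapped reads per β-cell ran from 241604 to 2497246 (median 1182924.5) in DMSO and from 324416 to 2171567 (median 1420597) in GNF4877. The α-cells had medians of 961560 and 1388772.5 mapped reads. The number of genes with a read had a median of 8809 in DMSO-treated β-cells and 7059.5 in GNF4877-treated β-cells, and 6474 and 4911 genes after each cell was thinned to 100000 reads. The part of this difference in the results that follow was not tested.

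The class names were checked against markers. Of 12 β-cell markers 11 were in the table, and their sum had a median of 16848.5 RPM in DMSO-treated and 14851 RPM in GNF4877-treated β-cells, led by *Ins2*, against 776 and 171 RPM in α-cells. *Mafa* was read in 5.36% of DMSO-treated β-cells and in no GNF4877-treated β-cell. Other β-cell markers differed both ways: medians in DMSO and GNF4877 were 13399 and 5652 RPM for *Ins2*, 6.92 and 0.647 RPM for *Nkx6-1*, 669 and 3199.7 RPM for *Iapp*, and 445 and 1292 RPM for *Slc2a2*. Of 11 α-cell markers 10 were in the table, and their sum, almost all of it *Gcg*, had a median of 413099 and 274728 RPM in α-cells, against 655 and 591 RPM in β-cells, where *Gc* led. Endothelial markers (4 of 7 with a read in DMSO-treated β-cells and 2 of 7 in GNF4877-treated ones, *Esam* highest) had a median sum of 0 RPM in β-cells. The median sums in DMSO-treated and GNF4877-treated β-cells were 0.759 and 1.46 RPM for δ-cell markers (*Sst* highest), 2.54 and 3.13 RPM for PP-cell markers (*Ppy* highest), and 308 and 290 RPM for duct markers (*Epcam* and *Krt7* highest). Single β-cells reached 15791 RPM of δ-cell markers and 113665 RPM of PP-cell markers. Mesenchymal markers had median sums of 1.60 and 0.677 RPM, but means of 490.4 and 0.990 RPM. Their highest sum was 15846 RPM in a DMSO-treated β-cell and 10.5 RPM in a GNF4877-treated one, and *Col1a1* was the highest of them in DMSO. Immune markers had median sums of 0.666 and 0 RPM, and means of 6.38 and 63.1 RPM, most of it *Cd74* (means 3.60 and 54.4 RPM). Whether these mesenchymal and immune differences between β-cells have a part in the results was not tested. Acinar markers had a median sum of 0 RPM in the β-cells and α-cells of both treatments. Single α-cells also held markers of other cells, up to 1792 RPM of δ-cell markers in DMSO. In GNF4877 they reached 15468 RPM of PP-cell markers and 3618 RPM of mesenchymal markers, against α-cell median sums of 6.16 and 0 RPM.

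A few β-cells had under 50% of their mapped reads on the listed transcripts, against medians of 93.03% for DMSO and 93.6% for GNF4877. The 3 such cells of DMSO had 4.65%, 8.99% and 18.9% of reads listed, and held 39.1, 122 and 2565 RPM of *Hspa5* and 3.01, 1.51 and 191 RPM of *Ddit3*. The single such cell of GNF4877 had 3.03% of reads listed, 92.5 RPM of *Hspa5* and 6.16 RPM of *Ddit3*. All 4 lie at the low end of *Ins1*, from 1248 to 6088 RPM. For 7 of the genes the lowest DMSO-treated β-cell is one of the 3, so lowest values and counts of cells below them are also given without the 4 cells, as are the relation to *Ins1* and the counts of pairs. Quartiles, medians and other values are over all cells unless stated.

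Among the chaperones, *Hspa5* encodes BiP, the main Hsp70 of the ER lumen. In DMSO-treated β-cells it ran from 39.1 to 18283 RPM with a median of 6683, and every cell had a read. GNF4877-treated β-cells spanned 92.5 to 33147 RPM with a median of 5912. Without the cells with few listed reads the lowest values were 931 RPM in DMSO and 301 RPM in GNF4877, and 2 of 57 treated cells lay below the lowest DMSO value. The ranges overlap: 20 of 58 treated cells lay below the lower quartile of DMSO (3647 RPM), 17 above its upper quartile (8388 RPM), and 6 above its highest cell. The ratio of mean RPM, GNF4877 over DMSO, was 0.14 on the log2 scale (7588 against 6871 RPM), and the difference of mean log2 values was -0.00. *Hsp90b1*, which encodes GRP94, the Hsp90 of the ER, spanned 6.77, 1393 and 3551 RPM (lowest, median, highest) in DMSO and 24.7, 1295 and 3651 RPM in GNF4877. *Calr*, for the calcium-binding lectin calreticulin, spanned 3.02, 533 and 1434 RPM and 9.25, 498 and 1436 RPM. The medians of both were close in the 2 treatments, with log2 ratios of -0.13 and -0.05. Without the cells with few listed reads the lowest values were 270.5 and 33.2 RPM for *Hsp90b1* in DMSO and GNF4877, and 142 and 30.2 RPM for *Calr*, with 4 and 5 treated cells below the lowest DMSO value. *Sdf2l1*, a partner of BiP, was read in 48 of 56 and 48 of 58 β-cells, with medians of 53.6 and 10.96 RPM and maxima of 296 and 417 RPM. Its log2 ratio was -0.75, and -1.01 without the GNF4877-treated cell at 417 RPM.

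*Dnajb9* encodes ERdj4, a J-domain partner of BiP. It spanned 4.51, 1049 and 2779 RPM in DMSO-treated β-cells. In GNF4877-treated β-cells it spanned 0.621, 468 and 1574 RPM. Most treated cells sat low in the DMSO range, 32 of 58 below its lower quartile (569.8 RPM) and 1 above its upper quartile (1566 RPM), with a log2 ratio of -0.95. Without the 4 cells with few listed reads the ratio was -1.01 and the lowest DMSO value 70.4 RPM, with 3 of 57 treated cells below it.

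In the arm of XBP1 and degradation, *Xbp1* encodes the transcription factor that IRE1 activates by splicing. It was read in 52 of 56 DMSO-treated β-cells (median 168 RPM, highest 567) and in 52 of 58 GNF4877-treated ones (median 43 RPM, highest 492). More treated cells sat low in the DMSO range, 33 of 58 below its lower quartile (77.3 RPM) and 6 above its upper quartile (289 RPM), and the log2 ratio was -0.77. The spliced and unspliced transcripts cannot be told apart: in 127 cells with over 20 reads of *Xbp1*, a median of 50.3% of the reads was on the first of the 2 transcripts, the split that random placement of shared reads gives. *Herpud1*, a membrane protein of ER-associated degradation, spanned 3.76, 418 and 2305 RPM in DMSO. Under GNF4877 it spanned 0, 90.5 and 892 RPM, with a read in 54 of 58 cells. Here 41 of 58 treated cells lay below the lower quartile of DMSO (238 RPM) and 4 above its upper quartile (792 RPM). The lowest DMSO value was 8.12 RPM without the cells with few listed reads, and 12 of 57 treated cells lay below it. Mean RPM was 2.66-fold lower in GNF4877 (198 against 525 RPM).

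In the arm of PERK, *Atf4* encodes the transcription factor whose translation rises under stress, a step that RNA levels do not show. It spanned 36.8, 570 and 1697 RPM in DMSO-treated β-cells and 0, 355 and 2698 RPM in GNF4877-treated ones. The treated cells spread past both ends of the DMSO range, with 9 below its lowest cell and 2 above its highest, and the log2 ratio was -0.44. Without the cells with few listed reads the lowest DMSO value was 86.7 RPM, and 10 of 57 treated cells lay below it. *Ddit3*, for CHOP, spanned 1.51, 1575 and 4731 RPM in DMSO. With GNF4877 the same gene spanned 0, 124 and 4379 RPM. Of the 58 treated cells, 36 lay below the lower quartile of DMSO (329 RPM), 12 below its lowest cell, and 3 above its upper quartile (2385 RPM), so that the highest treated cells were within the upper DMSO range while most were under it. Over cells with more listed reads, 14 of 57 lay below the lowest DMSO cell (3.35 RPM). Mean RPM was 2.84-fold lower in GNF4877 (578 against 1642 RPM).

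*Trib3* encodes a pseudokinase that is a target of ATF4 and CHOP. It was read in 53 of 56 DMSO-treated β-cells, 94.6%, with a median of 135 and a maximum of 1410.4 RPM. The exact Clopper-Pearson 95% interval of this share was 85.1% to 98.9%. Such intervals take the cells as independent draws and hold no spread between samples. A read was found in 24 of 58 GNF4877-treated β-cells, 41.4% (28.6% to 55.1%), with a median of 0 and a maximum of 564 RPM. After thinning to 100000 reads the shares were 83.3% (70.7% to 92.1%) of 54 and 33.3% (21.4% to 47.1%) of 57 cells, the lower share again in GNF4877. Mean RPM was 4-fold lower in GNF4877 (43.3 against 173 RPM).

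**Figure D1:**
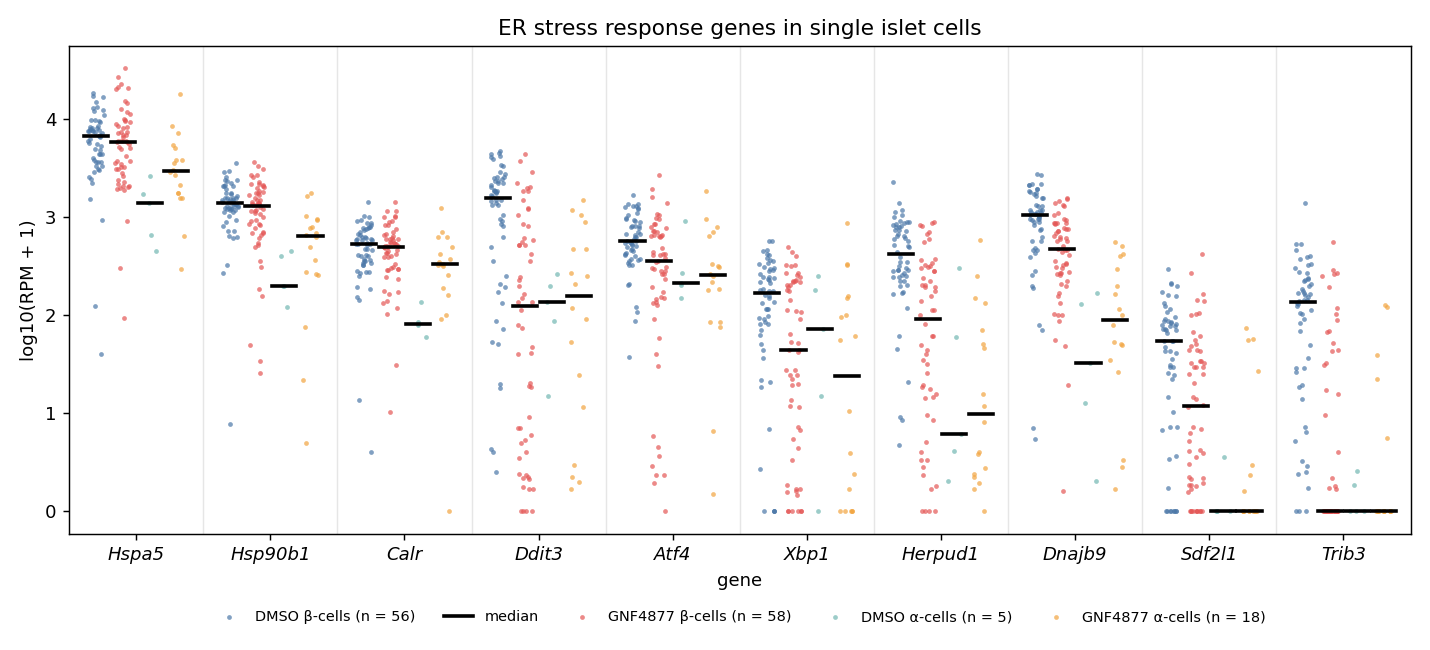
Level of each of the 10 genes as log10(RPM + 1) on the vertical axis, with a point for every β-cell or α-cell of each treatment and a black bar at the median of each class. *Hspa5*, *Hsp90b1* and *Calr* have β-cell medians close to each other in the 2 treatments, while *Ddit3* and *Herpud1* spread down to 0 in GNF4877-treated β-cells and the *Trib3* median is 0 there.

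By the ratio of mean RPM, 3 of the 10 genes were 2-fold or more lower in GNF4877-treated β-cells (*Ddit3*, *Herpud1* and *Trib3*), where 18.3% of the 13868 genes with a mean of 1 RPM or more were, and none was 2-fold or more higher, where 11.3% were, so the count is little above the background. The median log2 ratio of the 10 was -0.76, against -0.09 over all those genes. On the scale of single cells, the difference of mean log2(RPM + 1), the median over all genes itself moved to -0.39, and that of the 10 to -1.45, which is 1.06 below it. On that scale 7 genes were lower by 1 or more, where 21.1% of all genes were, and 0 were higher by 1 or more, where 1.83% were. Relative to the median of all genes, the differences of *Trib3* (-3.48), *Ddit3* (-3.05) and *Herpud1* (-2.26) were the most negative of the 10, and *Hspa5* (0.38), *Calr* (0.33) and *Hsp90b1* (0.06) lay above it.

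The other genes of the pathway were counted from lists. Of 35 ATF4 and CHOP targets with a mean of 1 RPM or more, 11 were 2-fold or more lower in GNF4877-treated β-cells and 2 higher, with a median log2 ratio of -0.50. Among those read in 50% or more of the cells of the group with the higher mean, the largest changes were in *Cebpb* (-1.66), *Slc7a5* (-1.63), *Sesn2* (-1.57, medians 198 and 3.95 RPM) and *Chac1* (-1.47). Of 9 sensors and activators of the response, 2 were lower, *Ern1* (-1.36), which encodes IRE1α, and *Mbtps1* (-1.09), and none higher, with a median of -0.53. Of 26 other ER chaperones and folding enzymes, 4 were higher and 2 lower, with a median of 0.20. These went both ways: *Hyou1*, an exchange factor for BiP, had a log2 ratio of -1.57 (medians 639.7 RPM in DMSO and 122 RPM in GNF4877), while the disulphide isomerase genes *Pdia3* (1.28, medians 1098 and 2641 RPM) and *P4hb* (1.11) were higher. *Ero1l* had a ratio of 1.13 by mean RPM but a difference of mean log2 of -0.25. Of 20 genes of ER-associated degradation, *Edem2* (1.56) was higher and *Edem3* (-1.84) and *Derl3* (-1.42) were lower, with a median of -0.22. Of 23 genes of translocation and glycosylation, *Ssr2* (1.19) was higher and none lower, with a median of 0.12. Of 16 heat shock genes, 1 was higher (*Hspd1*, 1.07) and 3 lower (*Dnajb1* -1.47 among them), with a median of -0.04. The shares of all genes past the same fold are those given for the 10 genes. On the difference of mean log2 values, where the median of all genes was -0.39 and more of all genes were lower than higher (the shares given above), the medians of these lists were lower too. Of the ATF4 and CHOP targets 19 were then lower by 1 or more and 0 higher (median -1.09), and of the chaperones and folding enzymes 6 were lower and 2 higher (median -0.29, above that of all genes). Of the degradation genes 7 were lower and 1 higher (median -0.69), and of the sensors 5 were lower and 0 higher (median -1.25). Of the translocation genes 3 were lower and 1 higher (median 0.02), and of the heat shock genes 3 were lower and 0 higher (median -0.21).

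Within GNF4877, the 18 β-cells with a read of the mitotic cyclin *Ccnb1* were set beside the 40 without. *Ddit3* spanned 0, 42.8 and 1496 RPM in the *Ccnb1*-positive cells. In the *Ccnb1*-negative cells its median was 181 RPM and its highest value 4379 RPM. The lower parts of both ranges overlap, and cells above 1496 RPM were all *Ccnb1*-negative. Its log2 ratio of mean RPM was -1.83, or -2.47 without the *Ccnb1*-positive cell at 1496 RPM. *Trib3* was read in 3 of 18 *Ccnb1*-positive cells, 16.7% (3.58% to 41.4%), and in 21 of 40 *Ccnb1*-negative cells, 52.5% (36.1% to 68.5%). Its log2 ratio of -2.80 went to -3.93 without the *Ccnb1*-positive cell at 87.7 RPM. Those were the 2 genes of the 10 at 2-fold or more lower, where 18.6% of all genes were, and none was higher, where 17.6% were, so on this scale the count is near the background. That count was not stable: it rose to 4 without a single cell, and it was also higher at a class threshold of 10000 RPM. The median log2 ratio was -0.68, against -0.02 over all genes. As a difference of mean log2 values, 4 of the 10 were lower by 1 or more (*Trib3*, *Ddit3*, *Herpud1* and *Dnajb9*), where 3.04% of all genes were, and 0 were higher, where 10.9% were. The medians on that scale were -0.53 and 0.11. Leaving out single *Ccnb1*-positive cells moved *Herpud1* from -0.88 to -1.34 (cell at 706 RPM), -1.05 (365 RPM) or -1.01 (313 RPM), and *Sdf2l1* from -0.94 to -1.43 (143 RPM) or -1.23 (99.7 RPM). Of 32 ATF4 and CHOP targets 11 were lower and 4 higher by the ratio of mean RPM, with *Vldlr* (-2.63) and *Pck2* (-2.62) lowest, and 7 were lower and 1 higher by the difference of mean log2 values.

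The α-cells had lower levels of most of these genes than the β-cells of the same treatment. In DMSO, *Hspa5* was at 454, 663, 1408, 1726 and 2652 RPM in the 5 α-cells, all below the lower quartile of β-cells. *Ddit3* was at 13.9, 85.9, 136, 199 and 260.0 RPM in the same 5 cells, each below the β-cell lower quartile as well. *Dnajb9* was at 1.04, 11.8, 31.97, 131 and 169.8 RPM. The last stayed under the β-cell lower quartile in all 5 cells. Of the 10 genes, 8 were 2-fold or more lower in α-cells of DMSO, where 47.2% of all genes were, and none was higher, where 12.5% were. The median log2 ratio, α-cells over β-cells, was -2.69, against -0.88 over all genes. Hormone RNA was a median of 40.9% of mapped reads in these α-cells and 5.03% in the β-cells; with RPM taken outside the hormone genes the all-gene median rose by 0.52, and the median of the 10 was -2.03, which is 1.66 below that of all genes. For *Hspa5* (-2.31), *Hsp90b1* (-2.42), *Calr* (-2.59) and *Ddit3* (-3.55) no left-out cell moved the ratio by more than 1.5 times. Left-out cells moved *Atf4* from -0.93 to -1.68 (α-cell at 909.98 RPM), *Xbp1* from -0.88 to -1.51 (252 RPM) or -1.17 (179 RPM), *Herpud1* from -2.79 to -4.85 (305 RPM) and *Dnajb9* from -3.97 to -4.61 (169.8 RPM). *Sdf2l1* and *Trib3* each rested on 3 reads over the 5 α-cells (exact Poisson interval 0.619 to 8.77 reads), in 1 cell at 2.61 RPM and in 2 cells at 0.871 and 1.56 RPM, so no fold is given for them.

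In GNF4877 the α-cells and β-cells overlapped. *Hspa5* spanned 298, 2950 and 18188 RPM in the 18 α-cells, inside the range of all treated β-cells. Without the β-cell with few listed reads, the lowest β-cell was at 301 RPM, just above the lowest α-cell. The log2 ratio of *Hspa5* was -0.88, and went to -1.21 without the α-cell at 18188 RPM. *Dnajb9* spanned 0.705, 89.4 and 563 RPM, with a log2 ratio of -1.73, the lowest of the 10. *Ddit3* spanned 0.705, 164 and 1497 RPM, with a median above that of the treated β-cells, a log2 ratio of mean RPM of -0.66 and a difference of mean log2 values of 0.27. Of the 10 genes, 5 were 2-fold or more lower (*Hsp90b1*, *Herpud1*, *Dnajb9*, *Sdf2l1* and *Trib3*), where 34.4% of all genes were, and none higher, where 14% were. The median log2 ratio was -0.97, against -0.45 over all genes. Outside the hormone genes (a median of 27.5% of reads in α-cells and 3.73% in β-cells) these medians were -0.57 and -0.07. With that scaling 4 of the 10 were 2-fold or more lower, and *Hsp90b1* was at -0.68. *Calr* went from -0.41 to 0.01 and *Atf4* from -0.28 to 0.15, a change of sign in both. Single cells moved several values. *Hsp90b1* went from -1.06 to between -0.98 and -0.97 without any of the α-cells at 74.3, 21.1 or 4.03 RPM. *Herpud1* went from -1.41 to -2.16 without the α-cell at 587 RPM, and *Xbp1* from 0.10 to -0.56 without the α-cell at 866 RPM. *Trib3*, read in 5 of 18 α-cells, went from -1.28 to -1.90 or -1.87 without the α-cells at 125 or 121 RPM, and to -0.95 without the β-cell at 564 RPM.

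Between treatments, most of the 10 genes had higher mean RPM in GNF4877-treated than in DMSO-treated α-cells. *Calr* was at 59.5, 78, 79.95, 84.8 and 136 RPM in the 5 DMSO-treated α-cells and spanned 0, 332 and 1253 RPM in the 18 GNF4877-treated ones. For *Calr* the DMSO-treated cells lay inside the treated range only through the treated cell at 0, since 17 of 18 had a read. The next lowest treated cell was at 90.6 RPM, above every DMSO-treated cell but the one at 136 RPM. The log2 ratio was 2.13 for *Calr* and 1.58 for *Hspa5*. Of the 10 genes, 7 were 2-fold or more higher in GNF4877-treated α-cells, where 35.6% of all genes were, and none lower, where 23.9% were. *Sdf2l1* and *Trib3* are among the 7 and rest on the 3 DMSO reads each named above; they were read in 7 of 18 and 5 of 18 treated α-cells, with maxima of 73.5 and 125 RPM. The median log2 ratio was 1.34, against 0.29 over all genes. As a difference of mean log2 values the all-gene median moved by -0.66, and the median of the 10 was 0.79, which is 1.15 above it. On that scale 5 of the 10 were higher by 1 or more, where 10.2% of all genes were, and 1 was lower, where 29.5% were. Between the scales *Ddit3* (1.39 by mean RPM and -0.29 as a difference), *Atf4* (0.21 and -0.58) and *Xbp1* (0.21 and -1.03) changed sign. Outside the hormone genes the all-gene median moved by -0.20, and the median of the 10 was 1.02, which is 0.93 above it. With that scaling 5 of the 10, and not 7, were 2-fold or more higher, and 0 were lower. Single cells decided several values of the 5 against 18: *Herpud1* went from -0.02 to 2.03 without the DMSO-treated cell at 305 RPM and to -0.77 without the treated cell at 587 RPM. *Dnajb9* went from 1.29 to 0.97 or 1.93 without the DMSO-treated cells at 1.04 or 169.8 RPM. *Atf4* went from 0.21 to 0.96 without the DMSO-treated cell at 909.98 RPM, and *Xbp1* from 0.21 to -0.44 or 0.84 without the treated cell at 866 or the DMSO-treated cell at 252 RPM. Of 31 ATF4 and CHOP targets 21 were higher and 4 lower in treated α-cells by the ratio of mean RPM, and 10 higher and 7 lower by the difference of mean log2 values. Of 26 chaperones and folding enzymes 11 were higher and none lower by the ratio, and 8 higher and 6 lower by the difference. The other lists were more mixed. Of 18 degradation genes 8 were higher and 5 lower by the ratio, and 4 and 6 by the difference. Of 23 translocation genes these counts were 5 and 3, and 4 and 6. Of 9 sensors they were 3 and 2, and 0 and 3. Of 14 heat shock genes they were 2 and 3, and 1 and 5. By the difference the median of all genes was lower, as given above.

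The relation to the level of *Ins1* was described by Spearman's rho across β-cells of a treatment, with no p-value. These cells were taken to share a chip and a library run, from the methods of the study and not from the labels, and they differ in depth. In DMSO-treated β-cells, rho with mapped reads was -0.15 for *Ins1*, 0.32 for *Dnajb9*, 0.26 for *Trib3*, 0.26 for *Ddit3* and 0.18 for *Hspa5*. The part of depth in the relation to *Ins1* was not tested. *Ins1* spanned 2502, 37578 and 147087 RPM in DMSO and 1248, 22668 and 184281 RPM in GNF4877. Over the 56 DMSO-treated β-cells, rho with *Ins1* was -0.32 for *Dnajb9*, -0.31 for *Hspa5*, -0.30 (-0.298) for *Trib3*, -0.29 for *Ddit3*, and between -0.19 and 0.10 for the other genes. Thus 2 of the 10 had a rho of -0.3 or less, where 1.17% of the 8275 genes read in 50% or more of the cells did, and 0 had 0.3 or more, where 7.59% did. The median was -0.16, against 0.07 over all those genes, and 9 of the 10 were below 0, against 33.6% of all genes. Pearson's r of log2(RPM + 1) over the same 56 cells had the opposite sign for *Dnajb9* (0.19) and *Hspa5* (0.15), with a median of 0.13 over the 10.

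These values depended on the 3 DMSO-treated β-cells with few listed reads, which were low both in *Ins1* and in most of the 10 genes. Over the other 53 cells, rho was -0.53 for *Dnajb9*, -0.52 for *Hspa5*, -0.49 for *Trib3* and -0.48 for *Ddit3*. *Herpud1* (-0.37) and *Atf4* (-0.30) followed, and the other 4 lay between -0.26 and -0.05. Then 6 of the 10 had a rho of -0.3 or less, where 8.37% of genes did, 0 had 0.3 or more, where 3.68% did, and all 10 were below 0, against 56.1% of all genes. The median became -0.34, against -0.03 over all genes. Pearson's r over the 53 cells was -0.42 for *Dnajb9* and -0.43 for *Hspa5*. When the DMSO-treated β-cells were divided by *Ins1* into groups of 19, 19 and 18 cells, with *Ins1* medians of 12135, 38084 and 74336 RPM, the *Hspa5* medians were 7697, 7299.8 and 3754 RPM. The *Ddit3* medians were 1797, 2143 and 423 RPM, and the *Trib3* medians 154, 168 and 26.6 RPM. For these 3 genes the median was lowest in the group with the most *Ins1*. The 3 cells with few listed reads are in the group with the least *Ins1*; over its other 16 cells the medians were 7961 RPM for *Hspa5*, 1968 RPM for *Ddit3* and 272 RPM for *Trib3*. *Xbp1* had medians of 137, 177 and 184 RPM, and of 200.1 RPM in the group with the least *Ins1* without those 3 cells, each of which had no read of it.

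Over the 58 GNF4877-treated β-cells, rho with *Ins1* was -0.33 for *Hspa5* and -0.30 for *Sdf2l1*. *Trib3* had -0.33 but was read in under 50% of the cells and is not counted. Hence 2 of 9 genes had a rho of -0.3 or less, where 5.57% of 6335 genes did, and 0 had 0.3 or more, where 3.85% did, with a median of -0.09, against 0.01 over all genes. Without the cell with few listed reads, *Hspa5* was at -0.41 and *Sdf2l1* at -0.36, again 2 of 9 with -0.3 or less, where 8.34% of genes were, and 0 with 0.3 or more, where 2.68% were. *Ddit3* had -0.15 over the 58 cells, and *Atf4* (0.14) and *Xbp1* (0.17) were above 0. By groups of 20, 19 and 19 cells in order of *Ins1*, the *Hspa5* medians were 9120.4, 5987 and 3605 RPM, and the *Ddit3* medians were 473, 137 and 46.4 RPM. Without the cell with few listed reads the first of these were 9910.2 and 523 RPM. With RPM taken outside the hormone genes, rho of *Hspa5* with *Ins1* over all 56 DMSO-treated β-cells was -0.27, beside -0.31 before. Over all 58 GNF4877-treated β-cells it was -0.30, beside -0.33 before. With *Ins2* in place of *Ins1*, rho over these 58 cells was -0.27 for *Hspa5* and -0.11 for *Sdf2l1*.

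**Figure D2:**
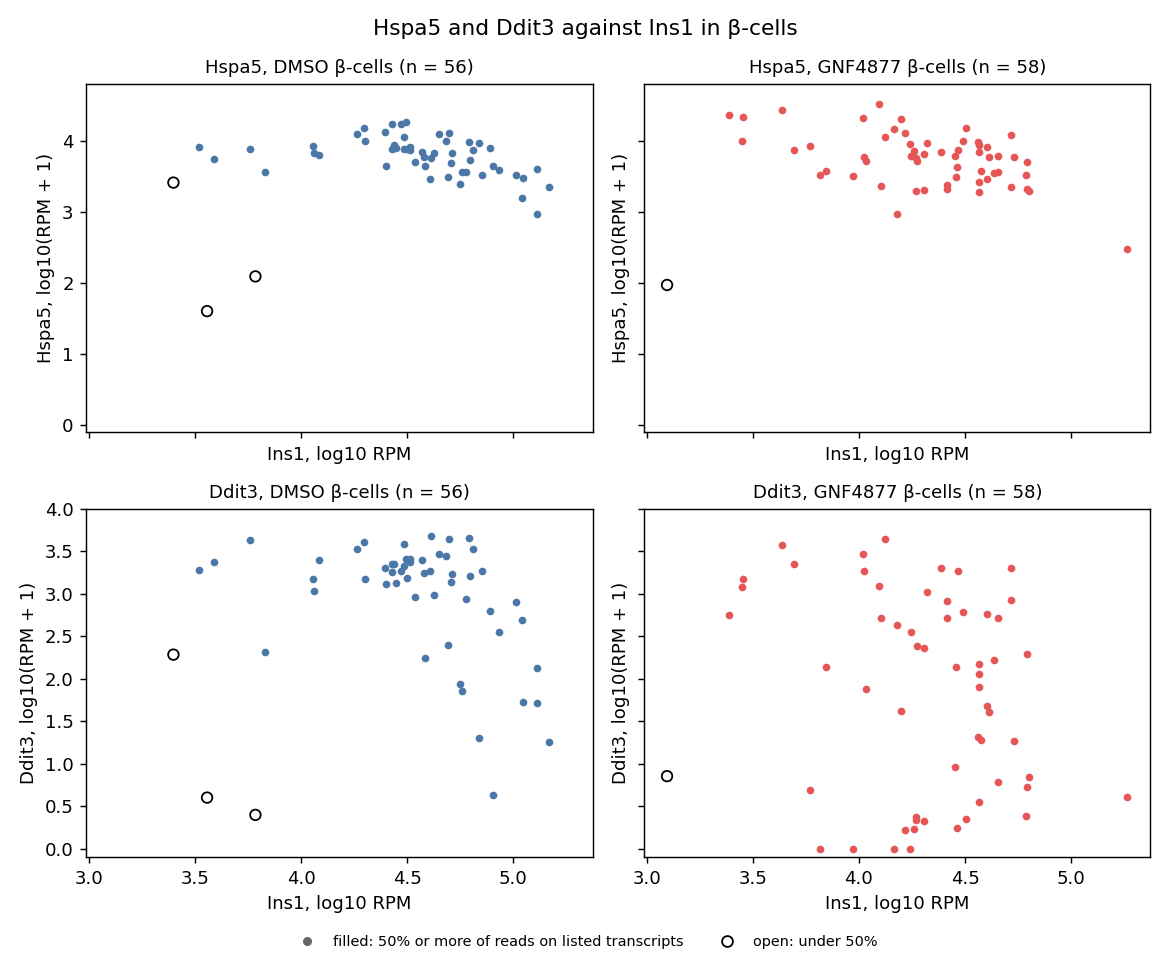
*Hspa5* (top) and *Ddit3* (bottom), as log10(RPM + 1), against log10 RPM of *Ins1* in the 56 DMSO-treated (left) and 58 GNF4877-treated (right) β-cells, with a point per cell and open circles for cells with under 50% of reads on listed transcripts. *Hspa5* is lower in cells with more *Ins1* (rho -0.52 over 53 and -0.41 over 57 cells, open circles left out). The open circles are among the cells with the least *Ins1*; 2 of those in DMSO have the lowest *Hspa5* of that treatment and the other lies inside the range of the filled points.

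Pairs of the 10 genes were also described by rho. Across DMSO-treated β-cells, 23 of the 45 pairs had a rho of 0.3 or more, where 9.07% of pairs of genes read in 50% or more of the cells did, and 19.7% of pairs of genes read in every cell. The median over the 45 pairs was 0.32, against 0.11 and 0.14. The highest values were 0.70 for *Hspa5* with *Ddit3*, 0.67 for *Ddit3* with *Dnajb9* and 0.65 for *Herpud1* with *Dnajb9*. *Xbp1* and *Sdf2l1* had no pair at 0.3 or more. Over the 53 cells with more listed reads, 20 of the 45 pairs had 0.3 or more, where 4.53% of all pairs did, with a median of 0.25 and values from -0.09 to 0.66. Across GNF4877-treated β-cells, 12 of 36 pairs had 0.3 or more, where 5.64% of pairs did, and 13.2% of pairs of genes read in every cell, with a median of 0.20, against 0.05 and 0.04. There *Hsp90b1* with *Calr* was at 0.43 and *Ddit3* with *Atf4* at 0.49, while *Calr* with *Atf4* was at -0.28, *Atf4* with *Sdf2l1* at -0.18 and *Calr* with *Ddit3* at 0.01. *Ddit3* was at 0.33 with *Hspa5*, 0.46 with *Dnajb9*, 0.11 with *Hsp90b1* and -0.19 with *Sdf2l1*. *Hspa5* with *Dnajb9* was at 0.52. Without the cell with few listed reads the count was again 12 of 36, where 4.63% of all pairs were, with a median of 0.17.

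**Figure D3:**
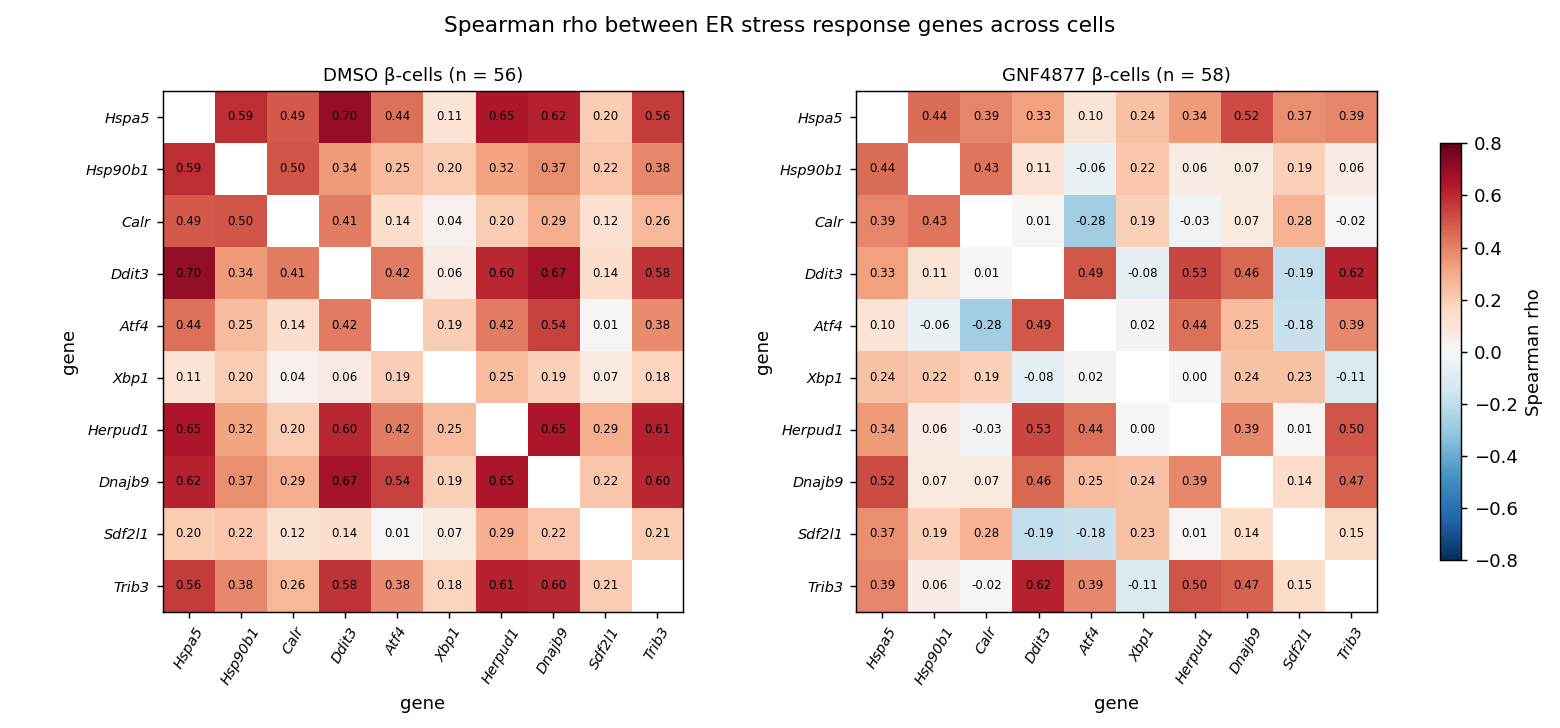
Spearman's rho between each pair of the 10 genes across the 56 DMSO-treated (left) and 58 GNF4877-treated (right) β-cells, coloured from -0.8 (blue) to 0.8 (red) and printed in each square. In DMSO the values run from 0.01 to 0.70, and in GNF4877 from -0.28 (*Calr* with *Atf4*) to 0.62 (*Ddit3* with *Trib3*).

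The correlation with *Hspa5* had a rho of 0.3 or more for 17.6% of genes in DMSO and 8.89% in GNF4877, and that with *Ddit3* for 17.9% and 5.54%. Against these, 16 of 27 ATF4 and CHOP targets read in 50% or more of the DMSO-treated β-cells had a rho of 0.3 or more with *Hspa5* and 17 with *Ddit3*, and in GNF4877 8 and 12 of 22 did. Of the 25 other chaperones and folding enzymes, 9 had a rho of 0.3 or more with *Hspa5* and 7 with *Ddit3* in DMSO, and 5 and 0 in GNF4877. The 10 genes most like *Hspa5*, by the mean of its rho in both treatments among 6203 genes, were *Ftl* (0.69 and 0.58) and genes with a rho of 0.99 or more with *Ftl*. Whether the reads of those genes are their own or are shared with *Ftl* is uncertain. With genes of rho 0.9 or more with *Ftl* left out, a choice made after the values were seen, the most like were *Manf* (0.75 and 0.46), which encodes a secreted ER stress protein, *Ifi27l2b* (0.69 and 0.50), *Gnb2l1* (0.67 and 0.52), *Ghitm*, *Uchl1*, *Dnajb9* (0.62 and 0.52), *Atp6v0b*, *Ncl*, *Chchd6* and *RGD1563861*. The 10 genes most like *Ddit3*, also looked up after the values were seen, were *Slc3a2* (0.70 and 0.65), *Ppp1r15a* (0.68 and 0.58), which encodes the eIF2α phosphatase subunit GADD34, *Sars* (0.60 and 0.63), *LOC100911275*, *RGD1561736*, *Casp4*, *LOC100362967*, *Nfu1*, *RGD1563861* and *Ndufaf3*.

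Promoters were read because genes of this response are known to share elements, and the sequences are shown for the 5 genes in which such an element was found. In the RefSeq promoter windows of assembly GRCr8 (250 bases before to 50 after the start), 10 of 10 genes were matched and both strands were searched. The ER stress element, CCAAT and CCACG with any 9 bases between, was found in 4 of the 10, *Hspa5*, *Hsp90b1*, *Calr* and *Xbp1*, and in 22 of all 33469 promoters (0.0657%). The second form, ATTGG and CCACG with any 1 base between, was found in *Herpud1* and in 17 of all promoters (0.0508%). TGACGTGG, bound by XBP1, was in 0 of the 10 (0.595% of all), and TGATGCAAT and TGATGNAAT, forms of the ATF4 and CHOP site, were in 0 of the 10 (0.188% and 1.09%). A match describes the letters and shows neither a bound site nor a cause. The 60-base windows that hold the matches are given on the strand of the gene, with the fixed letters of the element in capitals, at chr3:38452952-38453011 (+) for *Hspa5*, chr7:23012431-23012490 (-) and chr7:23012327-23012386 (-) for *Hsp90b1*, chr19:40213117-40213176 (+) for *Calr*, chr14:84604537-84604596 (+) for *Xbp1* and chr19:10614797-10614856 (-) for *Herpud1*. The second *Hsp90b1* match and that of *Calr* are on the opposite strand and so read CGTGG before ATTGG.
Hspa5: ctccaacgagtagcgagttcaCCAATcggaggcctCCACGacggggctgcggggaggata
Hsp90b1: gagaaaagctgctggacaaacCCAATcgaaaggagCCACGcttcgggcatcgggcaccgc
Hsp90b1 second match: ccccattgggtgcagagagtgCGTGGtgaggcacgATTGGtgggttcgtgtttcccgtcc
Calr: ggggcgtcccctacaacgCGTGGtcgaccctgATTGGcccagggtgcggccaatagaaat
Xbp1: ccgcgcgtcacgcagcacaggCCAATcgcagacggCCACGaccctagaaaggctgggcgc
Herpud1: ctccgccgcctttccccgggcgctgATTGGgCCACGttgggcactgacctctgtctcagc
The *Hspa5* element starts 43 bases before the start of transcription and that of *Xbp1* 65 bases before it. The *Hsp90b1* elements start 176 and 72 bases before it, that of *Calr* 232 and that of *Herpud1* 124. Of the 5 genes with a match, only *Herpud1* was 2-fold or more lower by mean RPM in GNF4877-treated β-cells, while *Ddit3* and *Trib3* had no match to any of the letters searched. Bases outside the windows and other forms of the elements were not searched. The lack of a match therefore cannot show that a gene has no such element.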

How the data were processed

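The authors ran single 50 bp reads through CASAVA 1.8.2, BWA 0.5.9 and SAMtools 0.1.19 and deposited RPM for each transcript. The mouse transcriptome is the reference their methods name, although rat RefSeq transcripts are listed. The deposited floor of 0.01 RPM became 0, read counts came from the spacing of a cell's values, and transcripts of a symbol were summed. The 10 genes and all lists (pathway, hormone and cell type markers) were chosen with earlier results of these data known. Ratios are log2((mean RPM + 1)/(mean RPM + 1)) over cells, for genes with a mean of 1 RPM or more in either group. Shares have exact Clopper-Pearson and read sums exact Poisson intervals. All 10 genes were named, up to 4 genes of each list by the largest ratio, and the 10 most like *Hspa5*. Alternatives were the pseudocount, scale, hormone genes, depth, thresholds, classes, summing and single cells; scaling to listed reads, leaving out cells with under 50% listed, pairs of genes read in every cell, and the setting aside of *Ftl*-like genes were chosen after seeing the data. The steps were tested on simulated data. No doublet was removed. The work used matplotlib 3.10.9, scipy 1.17.1, pandas 2.3.3 and numpy 2.4.6 under Python 3.11.15.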

Additional observations from a re-analysis of the deposited data

Results flagged for a closer look

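Among the 5 DMSO-treated α-cells, the highest value of *Atf4*, of *Herpud1* and of *Sdf2l1* stood apart, each in a different cell. *Atf4* was at 909.98 RPM in the highest cell and between 151 and 267 RPM in the others. *Herpud1* was at 305 RPM in the highest cell and between 1.04 and 59.8 RPM in the others. *Sdf2l1* was at 2.61 RPM, from 3 reads, in a single cell and listed at 0 in the others. In each gene, the gap to the nearest cell was a larger part of the whole range than Dixon's 95% critical value for 5 values. For *Sdf2l1* this says nothing more than that a lone cell had a read, since any value above 4 values of 0 passes. The critical value is made for normally distributed values, where chance alone sets apart about 1 in 20 such groups. The rate for RPM of single cells was not tested. *Ddit3* had a log2 ratio of mean RPM, GNF4877 over DMSO, of 1.39 in α-cells and of -1.50 in β-cells, opposite in direction. The difference between the cell classes was not tested, and as a difference of mean log2 values the α-cell value was -0.29.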

How the results depend on the processing

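No paired analysis was possible because the labels pair no cells and give 1 sample for each treatment. Each median and count kept its direction and moved by no more than the set limits (1.5-fold for ratios and counts, 0.1 for rho) except as follows, and the cause was not tested. When mean log2(RPM + 1) was subtracted instead, the median of the 10 genes between treatments in β-cells went from -0.76 to -1.45 and the number at 2-fold or more lower from 3 to 7. In the same way the number lower went from 0 to 1 in α-cells between treatments and from 2 to 4 by *Ccnb1*, which also became 5 at a class threshold of 10000 RPM and 4 without a single cell. With RPM outside the hormone genes, the median of α-cells over β-cells in DMSO went from -2.69 to -2.03. The median rho with *Ins1* in DMSO-treated β-cells (-0.16) went to -0.28 after thinning to 100000 reads, -0.39 at a class threshold of 10000 RPM, -0.38 with RPM over listed reads and -0.34 without the cells under 50% listed, but to 0.13 as Pearson's r of log2(RPM + 1). These settings overlap in the cells they leave out. Thinning left out 2 of the 3 DMSO-treated β-cells under 50% listed, and the threshold of 10000 RPM left out all 3. Pearson's r over these 56 cells reversed *Hspa5* (0.15) and *Dnajb9* (0.19); over the 53 cells with 50% or more of reads listed it was -0.43 and -0.42. The median pairwise rho in DMSO (0.32) became 0.53 as Pearson's r. The settings with listed reads, here and for the groups by *Ins1*, were chosen after seeing the data.

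Leaving out single cells gave median ratios of -0.90 to -0.70 for β-cells between treatments, 1.14 to 1.48 for α-cells, -1.21 to -0.87 and -3.05 to -2.49 for α-cells over β-cells in GNF4877 and DMSO, and -0.90 to -0.58 by *Ccnb1*. The median rho with *Ins1* ranged from -0.23 to -0.14 in DMSO and from -0.15 to -0.05 in GNF4877. Of 20 ratios of single genes (10 between treatments in β-cells and 10 of α-cells over β-cells in GNF4877), 10 moved by more than 1.5-fold as a difference of mean log2, and 3 with a single cell left out. Without the cells with *Sst* or *Ppy* 1 moved, *Xbp1* in α-cells over β-cells, from 0.10 to -0.52. In every other setting 0 moved. Of the 20 values of rho with *Ins1* for single genes, 12 moved at a class threshold of 10000 RPM, 7 after thinning, 10 with RPM over listed reads, 9 without the cells under 50% listed and 1 with RPM outside the hormone genes. As Pearson's r 12 moved and 2 reversed. Depth limits the shares of cells with a read: of 20 shares 14 stayed inside their interval after thinning and 6 moved. The 5 α-cells of DMSO limit each ratio that uses them.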

Other observations

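The 22 DMSO-treated cells in which *Ins1* and *Gcg* both reached 1000 RPM had a median of 2880.3 RPM of *Hspa5*, between the medians of DMSO-treated α-cells (1408 RPM) and β-cells (6683 RPM). Their *Ddit3* median was 526 RPM, also between those of α-cells (136 RPM) and β-cells (1575 RPM). *Trib3* was read in 19 of the 22, 86.4% (65.1% to 97.1%), with a median of 99.0 RPM. *Herpud1* (318 RPM) and *Dnajb9* (610.0 RPM) had medians between the 2 classes as well. The single GNF4877-treated cell with both hormones had 352 RPM of *Hspa5*, 277 RPM of *Ddit3* and no read of *Trib3*. Cells with neither hormone at 1000 RPM were 3 in DMSO, at 20.1, 817 and 986 RPM of *Hspa5*, and 7 in GNF4877.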
